A study of Macaca nemestrina with 15 samples.

Results

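Cytotoxic lymphocytes, which are the CD8 T cells and natural killer (NK) cells of blood, kill a target cell by releasing preformed granules onto it. Perforin opens the target's membrane, granzymes, which are serine proteases, enter and start cell death, and receptors on the killer cell set the threshold for release. The 10 genes described here encode parts of this machinery: the granzymes *GZMA*, *GZMB*, *GZMK* and *GZMM*, the pore former and granule proteins *PRF1*, *NKG7*, *CST7* and *CTSW*, and the lectin-like receptors *KLRD1* and *KLRB1*. They were chosen as a list of known effector genes and matched by gene name, and all 10 were found among the 28865 features of the count table.

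The data were RNA-seq libraries of peripheral blood mononuclear cells (PBMCs) from 5 pig-tailed macaques (*Macaca nemestrina*), each sampled 3 times, 15 libraries in all. Pre-treatment libraries (n = 5) came from before the first dose of oral islatravir (ISL), a nucleoside reverse transcriptase translocation inhibitor used against HIV. Week 12 libraries (n = 5) came after 12 weekly doses of 30 mg/kg, and week 18 libraries (n = 5) came from the same animals after dosing had ended, although their treatment label still reads islatravir. The study's text is not uniform on how many weeks after the last dose these were taken, and the labelled week is used as a name. No untreated animals were sequenced, so treatment cannot be told apart from the passage of time. The library names carry dates that place the later libraries 56 or 57 and 84 days after an animal's first, which is shorter than the labelled weeks and puts the later libraries of an animal about a month apart. Animals Z15303, Z15339 and Z15408 share their dates, and Z13076 and Z15228 each have their own. Ages were not given in the sources used here.

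Libraries held 5610597 to 10379572 reads on genes (median 8871860), and both later libraries of Z15303 were the shallowest. Of all features, 12880 were tested after a filter on low counts, the 10 effector genes among them. Their counts ranged from 72 for *KLRB1* in one library to 48925 for *GZMB* in another. Levels are given as CPM, read counts scaled to a common total, of the library scaled by edgeR's TMM method. A CPM value is not corrected for gene length, so levels are compared here between libraries; where reads of one gene are set against those of another, they are shares of reads and not levels per length. In a mixture of blood cells, fewer cells of a type and less RNA per cell cannot be told apart. Markers carried by killer cells were present. *CD8A*, a CD8 chain, lay at 162 to 437 CPM over the 15 libraries, and *NCR1*, an activating receptor of NK cells, at 6.74 to 29.0 CPM. No feature carried the name *CD8B*, the other CD8 chain, so *CD8A* values cannot be assigned to CD8 T cells alone.

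None of the 10 effector genes passed an adjusted p of 0.05 between any 2 time points, where 0.0% to 0.00776% of all tested features did, while 6 of the 10 passed between animals, where 30.9% of all did. At week 12 their fitted log2 fold changes against pre-treatment lay between -0.12 and 0.22 (median 0.12), and at week 18 between -0.48 and 0.12 (median -0.08). From week 12 to week 18 they lay between -0.58 and 0.00 (median -0.19), where *GZMA* and *KLRB1* were lower in 5 of 5 animals, as were 2.87% of all features. The median of all tested features was 0.00 in each comparison.

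**Figure D1:**
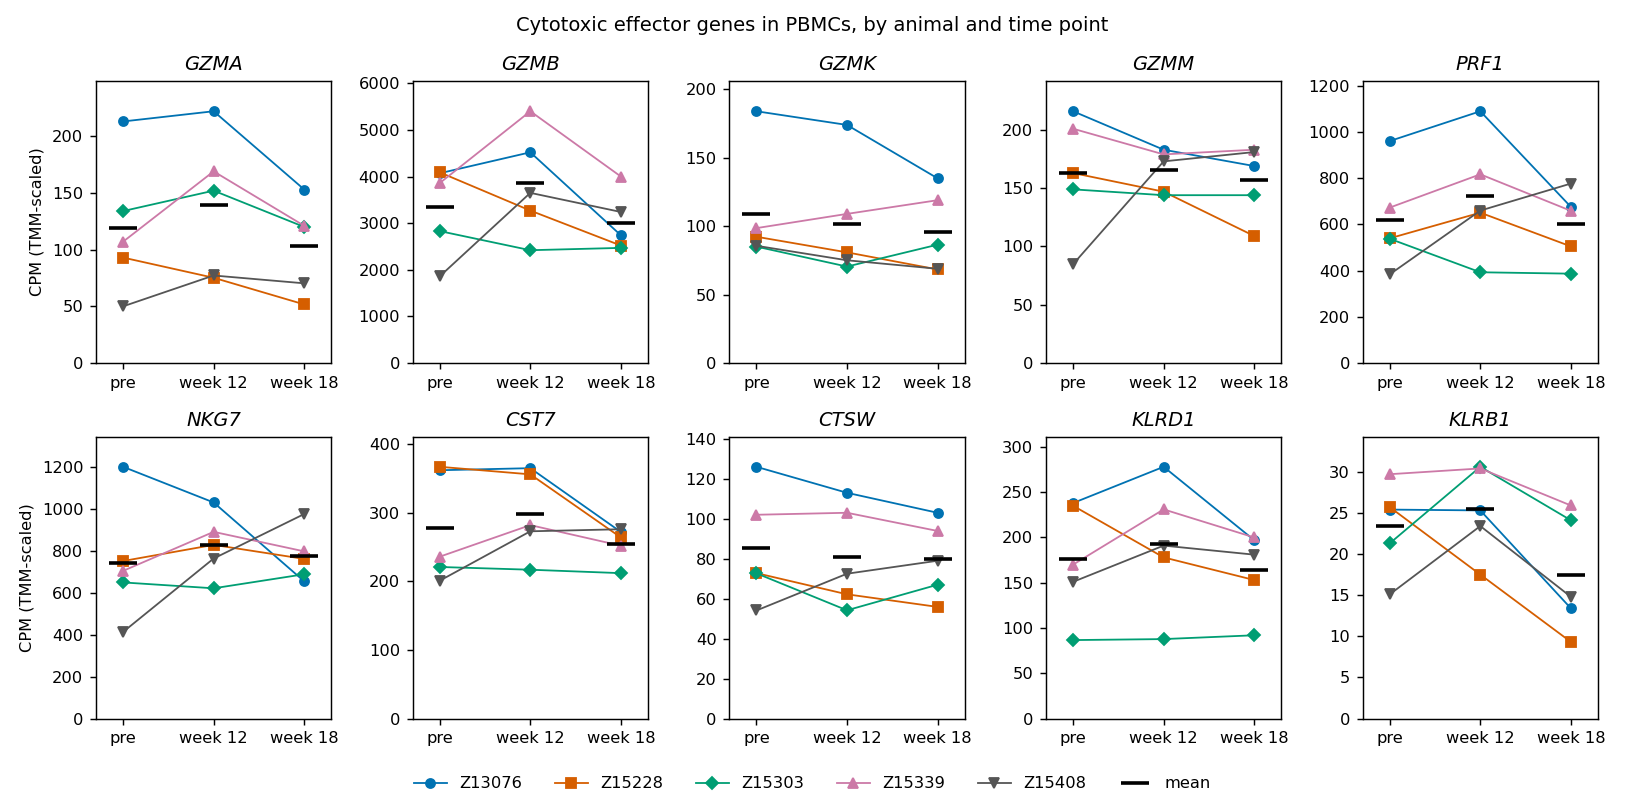
TMM-scaled CPM (vertical axis, starting at 0, with its own range in each panel) of the 10 effector genes at the 3 time points, 1 line for each of 5 animals, with the mean as a black bar. Z13076 has the highest *GZMK* at all 3 time points, Z15303 the lowest *KLRD1*, and Z15408 starts lowest for 8 of the 10 genes.

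*GZMA* encodes granzyme A, a tryptase of T-cell and NK-cell granules. Before treatment it lay at 213 CPM in Z13076, 93.0 in Z15228, 134 in Z15303, 107 in Z15339 and 50.0 in Z15408. At week 12 the same animals had 222, 75.2, 152, 169 and 77.2 CPM, and at week 18 they had 153, 51.7, 120, 121 and 70.3 CPM. Z13076 was highest at all 3 time points, and the ranges of the time points overlapped. The pre-treatment mean was 119 ± 60.6 CPM, that of week 12 was 139 ± 63.0 CPM and that of week 18 was 103 ± 41.3 CPM (SD, n = 5). Within animals, the change in log2 CPM from week 12 to week 18 lay between -0.54 and -0.14, so the level was lower in 5 of 5 animals. The fitted log2 fold change for that step was -0.40 (standard error 0.15, 95% confidence interval -0.71 to -0.09, unadjusted p = 0.0148). Its adjusted p was 1.0 (edgeR quasi-likelihood F test, animal as block).

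*GZMB* encodes granzyme B, which cleaves caspases and other proteins after aspartate, and is also known from plasmacytoid dendritic cells. Its pre-treatment level was 4070 CPM in Z13076, 4090 in Z15228, 2830 in Z15303, 3860 in Z15339 and 1860 in Z15408. The values were 4520, 3270, 2420, 5400 and 3650 CPM at week 12 and 2740, 2520, 2470, 4000 and 3240 CPM at week 18, in the same order. The time points overlapped, with Z15339 the highest animal at both later ones. *GZMB* alone took 0.206% to 0.535% of a library's reads and 53.6% to 65.8% of the reads on the 10 effector genes, and it ranked between the 8th and the 23rd feature by count. In the fit, its log2 fold changes were 0.19 at week 12 and -0.14 at week 18, each with a standard error of 0.18. Between the later time points it was -0.33 (standard error 0.18, 95% confidence interval -0.70 to 0.05), with 4 of 5 animals lower. Granzyme H, a close relative in primates, had no feature under the name *GZMH*, and how reads from it were counted is not known here.

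*GZMK* encodes granzyme K, a tryptase known from memory CD8 T cells. It lay at 184 CPM in Z13076 before treatment, against 92.3 in Z15228, 85.1 in Z15303, 98.6 in Z15339 and 85.7 in Z15408. It was 174, 80.9, 70.5, 109 and 75.1 CPM at week 12 and 135, 68.4, 86.5, 119 and 68.9 CPM at week 18. Z13076 stood above the other 4 animals each time. Z15339, at 98.6 to 119 CPM, stood above all libraries of Z15228, Z15303 and Z15408, which overlapped across time. Its log2 fold changes were the most tightly bounded of the 10 genes at week 12, at -0.12 (95% confidence interval -0.36 to 0.12), and were -0.18 (-0.42 to 0.06) at week 18.

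*GZMM* encodes granzyme M, a protease abundant in NK cells that cleaves after methionine. Pre-treatment levels were 216 CPM in Z13076, 163 in Z15228, 149 in Z15303, 201 in Z15339 and 84.8 in Z15408. Week 12 levels were 183, 147, 144, 179 and 173 CPM, and week 18 levels were 169, 109, 144, 183 and 181 CPM. Apart from Z15408, which went from lowest to within the range of the others, each animal was below its pre-treatment level at both later time points. The fitted log2 fold change was 0.04 at week 12 and -0.03 at week 18 (standard error 0.17 for each). With Z15408 left out, both were negative, at -0.15 for week 12 and -0.27 for week 18.

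*PRF1* encodes perforin. Levels before treatment were 961 CPM in Z13076, 540 in Z15228, 538 in Z15303, 673 in Z15339 and 384 in Z15408. They were 1090, 651, 393, 817 and 660 CPM at week 12 and 676, 505, 387, 659 and 777 CPM at week 18. Z13076 was highest at the first 2 time points and Z15408 at the last. Its log2 fold change was 0.19 at week 12, -0.03 at week 18 and -0.22 between the later time points (standard error 0.17 for each).

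*NKG7* encodes a membrane protein of the cytotoxic granule that is needed for efficient granule release. It lay at 1200 CPM in Z13076, 751 in Z15228, 649 in Z15303, 704 in Z15339 and 413 in Z15408 before treatment. At week 12 it lay at 1030, 828, 621, 890 and 763 CPM, and at week 18 at 654, 761, 688, 797 and 975 CPM. The animals that were highest and lowest before treatment thus ended as lowest and highest. Z13076 changed by -0.87 and Z15408 by 1.24 in log2 CPM to week 18, and the fitted mean change was 0.12 (standard error 0.19).

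*CST7* encodes cystatin F, an inhibitor of the cathepsins that activate granzymes. Before treatment it was at 362 CPM in Z13076, 367 in Z15228, 221 in Z15303, 236 in Z15339 and 201 in Z15408. It was at 365, 356, 217, 282 and 273 CPM at week 12 and at 272, 264, 212, 252 and 276 CPM at week 18. The levels of Z13076 and Z15228 stood above the other 3 animals at the first 2 time points and among them at week 18. Log2 fold changes of *CST7* were 0.12 at week 12, -0.08 at week 18 and -0.20 between them (standard error 0.12 for each).

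*CTSW* encodes cathepsin W, a cysteine protease found mainly in CD8 T cells and NK cells. Its levels were 126 CPM in Z13076, 72.8 in Z15228, 72.7 in Z15303, 102 in Z15339 and 54.1 in Z15408 before treatment. Week 12 gave 113, 62.2, 54.2, 103 and 72.5 CPM, and week 18 gave 103, 55.9, 67.0, 93.9 and 79.0 CPM. Z13076 and Z15339 were the 2 highest animals at every time point. The fitted log2 fold change was -0.08 at both later time points and 0.00 between them (standard error 0.12 for each).

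*KLRD1* encodes CD94, the partner chain of the NKG2 receptors of NK and CD8 T cells. Levels were 238 CPM in Z13076, 235 in Z15228, 86.7 in Z15303, 170 in Z15339 and 151 in Z15408 before treatment. They were 278, 178, 87.8, 231 and 191 CPM at week 12 and 197, 153, 92.0, 200 and 181 CPM at week 18. Z15303 stayed below each of the other libraries. The fitted log2 fold change was 0.12 at week 12, -0.07 at week 18 and -0.19 between them (standard error 0.13 for each).

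*KLRB1* encodes CD161, a receptor of NK cells that is also known from mucosal-associated invariant T (MAIT) cells and type 17 T cells. It had the fewest counts of the 10 genes, 72 to 275 per library. Before treatment it lay at 25.4 CPM in Z13076, 25.7 in Z15228, 21.3 in Z15303, 29.7 in Z15339 and 15.1 in Z15408. At week 12 it lay at 25.3, 17.5, 30.6, 30.4 and 23.4 CPM, and at week 18 at 13.4, 9.32, 24.1, 25.9 and 14.8 CPM. Z13076, Z15228 and Z15408 lay below every week 12 library at week 18, and Z15303 and Z15339 did not. The pre-treatment mean was 23.4 ± 5.55 CPM, that of week 12 was 25.4 ± 5.43 CPM and that of week 18 was 17.5 ± 7.15 CPM (SD, n = 5).

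Among the 10 genes, *KLRB1* had the lowest log2 fold changes at week 18. Against week 12 it was -0.58 (standard error 0.19, 95% confidence interval -0.98 to -0.18, unadjusted p = 0.00724), with 5 of 5 animals lower. Against pre-treatment it was -0.48 (standard error 0.19, 95% confidence interval -0.89 to -0.08, unadjusted p = 0.0222), with 4 of 5 animals lower. The adjusted p values were 1.0 and 0.814 (edgeR, animal as block). Without the block neither these values nor that of *GZMA* had an unadjusted p under 0.05. With the block, the week 12 to week 18 values of *GZMA* and *KLRB1* had one with each animal left out in turn. Without Z13076 or Z15228 the unadjusted p of *KLRB1* against pre-treatment was no longer under 0.05, and in the 3 animals with shared dates its log2 fold change was -0.01. The list of other MAIT and type 17 T-cell markers held no gene with an unadjusted p under 0.05, and its median log2 fold change at week 18 was -0.25 against pre-treatment and 0.04 against week 12.

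**Figure D2:**
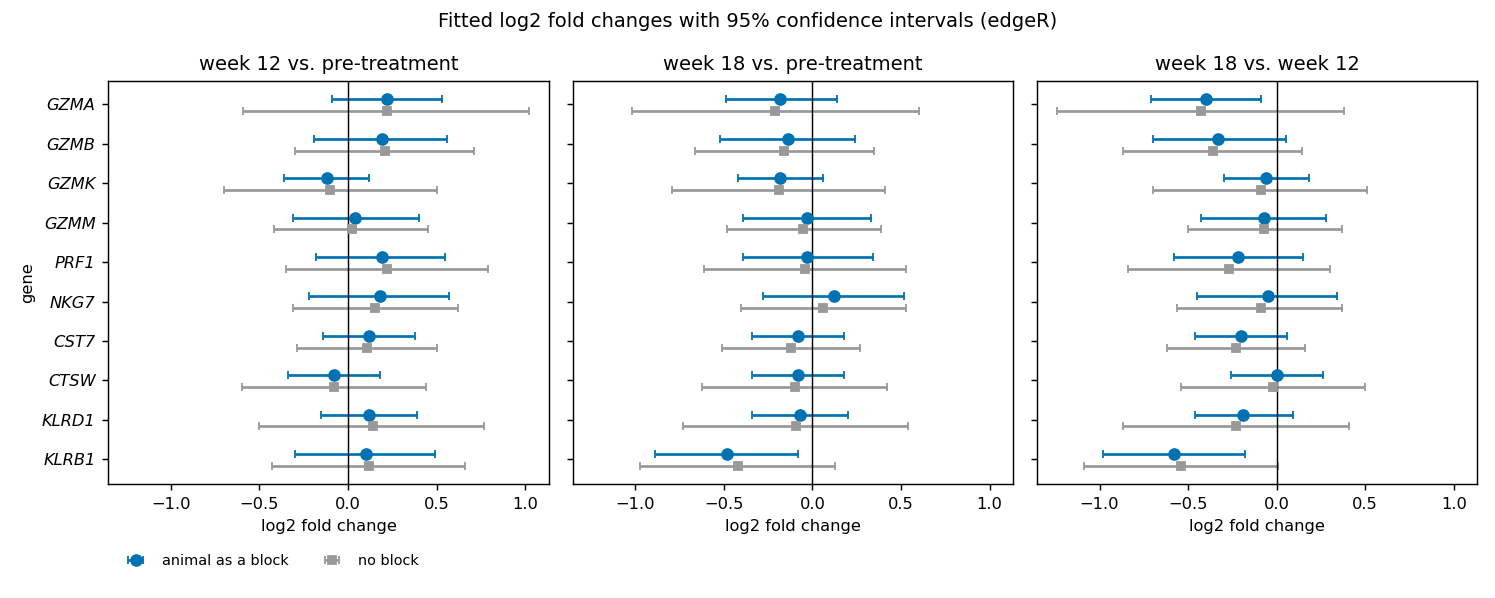
Fitted log2 fold changes (horizontal axis) of the 10 effector genes for the 3 comparisons, with 95% confidence intervals, from edgeR with the animal as a block (circles) and without it (squares). With the block the intervals of *KLRB1* at week 18 in both comparisons, and of *GZMA* against week 12, lie below 0, and the others cross it.

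The share of called genes among the 10 can be set beside that of all features. At week 12, 0 of 10 passed after adjustment, against 0.00776% of the tested features, which was 1 feature. At an unadjusted p under 0.05 the counts were 0 of 10 and 4.69% of all features. At week 18, 0 of 10 passed, against 0.00776% of all, and 1 of 10 had an unadjusted p under 0.05, against 5.85%. For week 18 vs. week 12, 0 of 10 passed, against 0.0% of all, and 2 of 10 had an unadjusted p under 0.05, against 2.17%. DESeq2's Wald test with the block gave the same counts of 0, 1 and 2 effector genes at an unadjusted p under 0.05. The counts moved with the animals left out. Without Z15408, 4 of 10 had one at week 18 (4.91% of all features) and 5 of 10 for week 18 vs. week 12 (2.92%), all lower. Without Z15228, 1 of 10 had one at week 12, *GZMA*, which was higher (5.93%), and 0 of 10 at week 18 (6.21%). Without Z15339 it was 2 of 10 at week 18, *GZMK* and *KLRB1*, both lower (3.95%). Without Z13076 the gene at week 18 was *NKG7*, which was higher (10.6%), and not *KLRB1*.

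The confidence intervals of the fit with the block hold under its estimate of the spread. For week 12 they reached from -0.36 to 0.57 over the 10 genes, for week 18 from -0.89 to 0.52. For week 18 vs. week 12 they reached from -0.98 to 0.34. The width of the interval with the block was 0.48 for the most precise gene and 0.79 for the least precise at week 12. Without the block the intervals were wider, as for *GZMA* at week 12 (-0.59 to 1.02). Changes within animals also ranged further, as for *NKG7* at week 18 (-0.87 to 1.24), so larger changes are not excluded.

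Changes were also counted within animals. To week 12 and to week 18, 0 of the 10 genes moved in the same direction in 5 of 5 animals. Of all features 5.67% and 6.53% did, so a count of 0 of 10 does not set these genes apart. Between week 12 and week 18, *GZMA* and *KLRB1* were lower in 5 of 5 animals, 2 of 10 genes against 2.87% of all features. In some animals most of the 10 genes lay on the same side. In Z15408, 9 of the 10 were higher at week 12 than before treatment (median change in log2 CPM 0.63), with *GZMK* as the exception at -0.19. In Z13076 all 10 were lower at week 18 than before treatment (median -0.46), and in Z15228 9 of the 10 were lower (median -0.53), with *NKG7* at 0.02. Z15303 and Z15339 were split, with 4 and 6 of the 10 higher at week 18 (medians -0.06 and 0.07), and so was Z13076 at week 12, with 5 higher and 5 lower. Over these comparisons 46.9% to 51.8% of all tested features were higher in an animal.

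**Figure D3:**
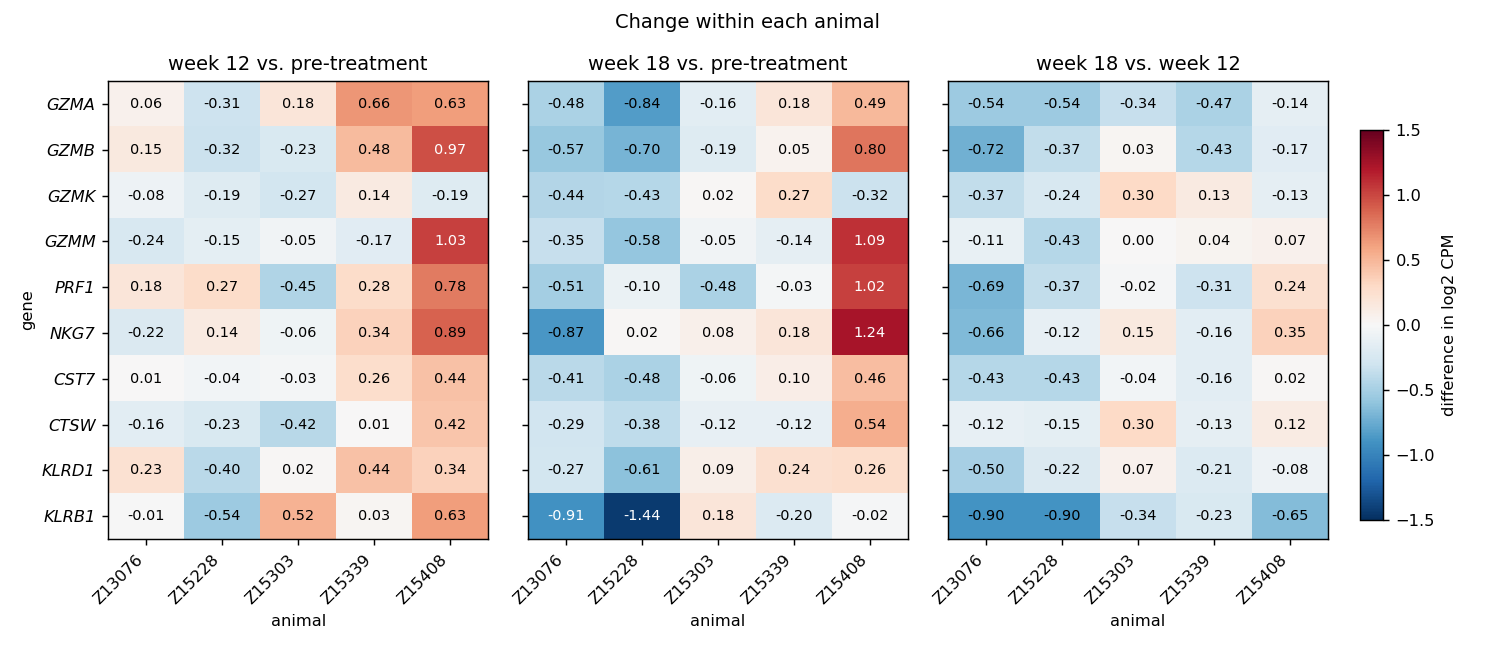
Difference in log2 CPM within each animal (columns) for each effector gene (rows) in the 3 comparisons, with blue for lower and red for higher. At week 18 against pre-treatment the columns of Z13076 and Z15228 are mostly blue (medians -0.46 and -0.53), and that of Z15408 is mostly red (median 0.52).

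The pre-treatment library of Z15408 held the lowest level of 8 of the 10 genes among the 5 animals, *GZMK* and *KLRD1* being the others. Its later libraries were lowest for none. Such a count was not particular to this library. At week 12 Z15303 was lowest for 8 of the 10 genes. Z13076 was highest for 7 of them before treatment and for 8 at week 12. The spread between animals, as the SD of log2 CPM, was smaller at week 18 than before treatment for 9 of 10 genes, all but *KLRB1*, against 50.1% of all features. At week 12 it was smaller for 7 of 10, against 46.9%. Leaving out Z15408 left 5 of 10 narrower at week 18, against 40.5% of all features, and 3 of 10 at week 12, against 36.5%. The SD of *GZMM* was 0.53 before treatment and 0.16 at week 12. The pre-treatment library of Z15408 had the highest TMM factor of the 15 (1.109) and the most features with a count (16556), and the part of these in the result was not tested.

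The dates in the library names split the animals into those with shared dates and those without, and the medians against pre-treatment had opposite signs in these sets. In Z15303, Z15339 and Z15408 the median log2 fold change of the 10 genes was 0.26 at week 12 and 0.18 at week 18 against pre-treatment, with 9 of 10 genes higher each time. In Z13076 and Z15228 it was -0.10 at week 12 (9 of 10 lower) and -0.45 at week 18 (10 of 10 lower). For week 18 vs. week 12 the medians were -0.04 and -0.40. The median of all tested features lay between -0.02 and 0.01 in these fits. The animals of a set were not alike. Within Z15303, Z15339 and Z15408 the median changes of the 10 genes were -0.06, 0.27 and 0.63 at week 12. At week 18 they were -0.06, 0.07 and 0.52. Within Z13076 and Z15228 they were 0.00 and -0.21 at week 12, and -0.46 and -0.53 at week 18. At an unadjusted p under 0.05, the first set had 3 of 10 genes at week 12 (16.3% of all features), 1 of 10 at week 18 (17.5%) and 2 of 10 for week 18 vs. week 12 (1.58%). The other 2 animals had 0 of 10 (8.54%), 8 of 10 (7.01%) and 6 of 10 (5.71%). In neither set did an effector gene pass edgeR's test after adjustment, and the difference between the sets was not tested. *GZMA* and *KLRB1* were lower from week 12 to week 18 in both sets.

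Markers of other blood cells moved within the same animals. From week 12 to week 18 the median change of 7 monocyte markers was 1.20 in Z13076 and 0.86 in Z15228, against -0.28 to 0.33 in the other animals, and all 10 effector genes were lower in both (medians -0.52 and -0.37). At week 18 against pre-treatment, Z13076 and Z15228 also had opposite signs. The monocyte markers had 0.40 and 0.50 in these animals, and the effector genes -0.46 and -0.53. In the others the lists shared a sign, with -0.15 and -0.06 in Z15303, 0.52 and 0.07 in Z15339, and 0.22 and 0.52 in Z15408. At week 12 against pre-treatment, Z13076 had -0.91 for the monocyte markers and 0.00 for the effector genes. In each other animal the lists shared a sign there. The summed CPM of the monocyte markers was 2180 to 3700 at week 12 and 2570 to 5750 at week 18, and none was at 0 in any library. *CD14*, the lipopolysaccharide co-receptor of monocytes, had a fitted change of 0.59 on the log2 scale (standard error 0.20, unadjusted p = 0.00868) from week 12 to week 18, with 5 of 5 animals higher. *LYZ*, lysozyme, had 0.44 (standard error 0.15), with 4 of 5 higher. Neither passed after adjustment (edgeR adjusted p = 1.0), and their part in the values of the effector genes was not tested.

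B-cell markers had lower values at both later time points. The 6 markers had median log2 fold changes of -0.83 at week 12 and -0.87 at week 18, each with an unadjusted p under 0.05, and their summed CPM went from 232 to 988 before treatment to 133 to 500 and 170 to 415. *MS4A1*, which encodes CD20, had the lowest unadjusted p of them at week 12 (-1.08 on the log2 scale, standard error 0.19; adjusted p = 0.0768 in edgeR). *BLK*, a B-cell kinase, had -0.86 at week 12 and -0.98 at week 18. The part of this in the effector gene values was not tested. *TCF4*, a regulator of plasmacytoid dendritic cells, had -0.59 and -0.61 (edgeR adjusted p = 0.204 and 0.0972), lower in 5 of 5 animals both times, beside *GZMB* values of 0.19 and -0.14. The list of 4 such markers did not move as one: its log2 fold changes spanned -0.59 to 0.42 at week 12 (median -0.19) and -0.61 to 0.54 at week 18 (median -0.49), and its median within an animal at week 12 ranged from -1.08 in Z13076 to 0.88 in Z15408. The summed CPM of the 4 plasmacytoid dendritic cell markers was 90.2 to 205 before treatment, 96.5 to 147 at week 12 and 77.9 to 140 at week 18.

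**Figure D4:**
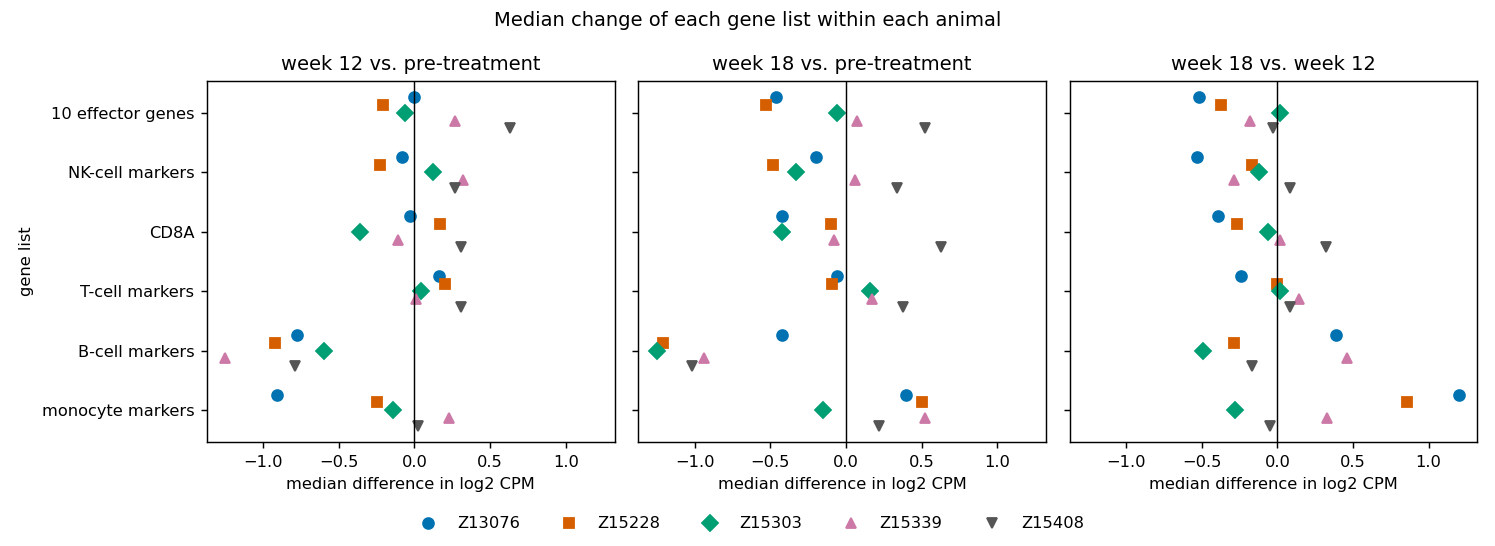
Median difference in log2 CPM (horizontal axis) of each gene list within each of 5 animals, for the 3 comparisons. From week 12 to week 18 Z13076 lies lowest of the 5 animals for the effector genes and the NK-cell markers (medians -0.52 and -0.53) and highest for the monocyte markers (1.20).

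T-cell and NK-cell markers were read as lists of the cells that carry the effector genes. *CD8A* had log2 fold changes of -0.01, -0.08 and -0.07 in the 3 comparisons (standard error 0.13 for each), and the 7 T-cell markers had medians of 0.06, 0.08 and 0.01. *CD6*, a T-cell adhesion receptor, had 0.24 at week 12 and 0.28 at week 18, and *CCR7*, the homing receptor of naive and central memory T cells, had 0.35 and 0.39. The 6 NK-cell markers had medians of 0.04, -0.11 and -0.20. Within that list *NCAM1*, which encodes CD56, had 0.42 at week 18 and 0.47 against week 12, with 5 of 5 animals higher in the latter. The other 5 genes were lower in both comparisons, *NCR1* with -0.56 and -0.49. None of these values passed after adjustment in edgeR's test with the block. Whether each listed gene marks NK cells in macaque blood was not tested, so the *NCAM1* values are not read as a change in NK cells. Of the 5 platelet and 2 red-cell markers tested, 0 had an unadjusted p under 0.05 in any comparison. Within animals these lists also moved: the platelet median changed by 1.13 to week 12 and by -0.94 from there to week 18 in Z13076, and by -1.22 and 0.77 in Z15228. The red-cell median changed by 2.36 from week 12 to week 18 in Z13076 and by -1.04 in Z15228. The part of these in the effector gene values was not tested.

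The other genes of the cytotoxic pathway also gave no call after adjustment. Of 6 listed mediators only 1 was found by name, at 0.709 to 2.49 CPM, so mediators were hardly covered. Among the receptors no feature carried the names *KLRC2*, *KLRC3* or *FCGR3A*. Of 32 tested genes for granule content and secretion, NK and CD8 receptors, mediators and transcription factors, 0 passed in any comparison. At an unadjusted p under 0.05, 0 were higher in any comparison, and 0, 5 and 4 were lower at week 12, at week 18 and from week 12 to week 18. Of all tested features, 4.69%, 5.85% and 2.17% had one in these comparisons, in either direction. Their median log2 fold changes were 0.07, -0.05 and -0.11. *RAB27A*, the GTPase that docks cytotoxic granules at the membrane, had the smallest unadjusted p of them. It lay at 120 CPM in Z13076, 91.8 in Z15228, 64.9 in Z15303, 84.4 in Z15339 and 96.6 in Z15408 before treatment and at 96.3, 71.9, 53.0, 79.3 and 78.6 CPM at week 18, lower in 5 of 5 animals. That is a fitted change of -0.27 on the log2 scale (standard error 0.09; adjusted p = 0.584 in edgeR), and against week 12 it was -0.24 (standard error 0.09), again with 5 of 5 lower.

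Among the receptors, *NCR1* lay at 9.32 to 29.0 CPM before treatment and 6.74 to 14.2 CPM at week 18. Its change to week 18 was -1.42 in Z13076 and -1.25 in Z15228, and -0.45 to 0.41 in the other animals. *KLRK1*, which encodes the activating receptor NKG2D, had -0.30 at week 18 on the log2 scale (standard error 0.13), with 4 of 5 animals lower. Of the transcription factors, *EOMES*, a T-box factor of cytotoxic cells, had -0.24 from week 12 to week 18, with 5 of 5 animals lower. *PRDM1*, which encodes BLIMP1, a factor of effector differentiation, had -0.41 at week 18 and -0.49 against week 12, each with 4 of 5 lower. *ZEB2*, a factor of terminal effector cells, had -0.27 at week 18.

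The animals were compared with each other over the 3 time points. The test of the animal term, in which an animal's 3 libraries serve as its replicates, passed for 6 of 10 genes, against 30.9% of all features. The edgeR adjusted p was 2.74e-05 for *GZMA*, 4.7e-05 for *GZMK*, 0.000112 for *KLRD1*, 0.000869 for *CTSW*, 0.0167 for *PRF1* and 0.0204 for *CST7*. It was 0.0692 for *KLRB1*, 0.0846 for *GZMB*, 0.24 for *GZMM* and 0.342 for *NKG7*. Without Z15303 the count was 3 of 10, namely *GZMA*, *GZMK* and *CTSW*, against 17.7% of all features, and without Z15408 it was 8 of 10, against 25.0%.

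Z13076 had the highest mean of its 3 libraries for 8 of the 10 genes, and Z15339 for *GZMB* and *KLRB1*. *GZMA* was at 196 ± 37.7 CPM in Z13076, 135 ± 15.8 in Z15303, 132 ± 32.3 in Z15339, 73.3 ± 20.7 in Z15228 and 65.8 ± 14.2 in Z15408 (SD, n = 3 libraries), a 2.98-fold range. By the overlap of mean ± SD, the neighbours Z15303 and Z15339, and likewise Z15228 and Z15408, did not differ beyond their spread, and the steps above each of these pairs were larger than it. *GZMK* was at 164 ± 25.9 CPM in Z13076 and 109 ± 10.1 in Z15339, and the remaining 3 animals lay at 76.6 to 80.7 CPM without separating. *KLRD1* was at 88.8 ± 2.83 CPM in Z15303, below Z15408 at 175 ± 20.8, and the other 4 animals did not separate from their neighbours. *CTSW* was at 114 ± 11.4 CPM in Z13076, 99.7 ± 5.02 in Z15339 and 63.7 to 68.6 in the other 3. For *PRF1* the animals ranged 2.07-fold and for *CST7* 1.54-fold, with no gap between neighbours beyond their spread.

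The order of the animals was not the same for each gene. Z15303 was second for *GZMA* and lowest for *GZMB*, *PRF1*, *NKG7*, *CST7* and *KLRD1*. Z15228 was second for *CST7* and lowest for *GZMM*, *CTSW* and *KLRB1*. As a description, the animal accounted for a median of 64.3% of the sum of squares of log2 CPM over the 10 genes, against 51.9% over all tested features, and the time point for 6.06% against 6.23%. The animal's share was 88.0% for *GZMK* and 27.9% for *NKG7*, and the time point's share was highest for *KLRB1*, at 29.3%.

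**Figure D5:**
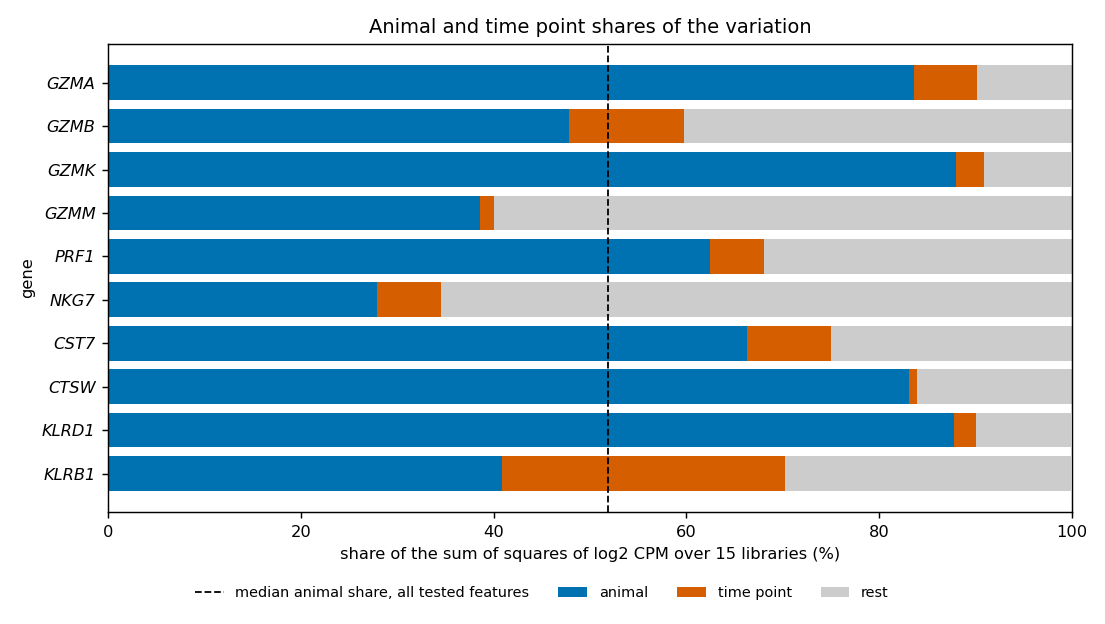
Share of the sum of squares of log2 CPM over 15 libraries (horizontal axis, %) that goes with the animal, the time point and the rest, for each effector gene, with the median animal share of all tested features as a dashed line (51.9%). The animal takes 83.1% to 88.0% for *GZMA*, *GZMK*, *CTSW* and *KLRD1*, and *KLRB1* has the largest time point share (29.3%).

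The 10 genes varied together over the libraries to unlike degrees. The Pearson correlation of log2 CPM between 2 of them had a median of 0.628 over the 45 pairs (0.0346 to 0.85). It was 0.708 (0.00329 to 0.943) after each animal's mean was subtracted. The lowest values after subtraction were those of *GZMK* with *GZMM* (0.00329), *PRF1* (0.0779) and *NKG7* (0.0879), and its highest was 0.539 with *KLRD1*. Values for pairs of other features are not given here. The 15 libraries come from 5 animals, so these values are a description. *CTSW*, *PRF1* and *GZMB* followed the mean of the other 9 genes most closely (r = 0.875, 0.87 and 0.867), and *KLRB1* least (r = 0.393). The other features with the highest correlation with the mean of the 10 standardized genes over the 15 libraries were *THY1* (r = 0.91), *TENT5C* (0.893), *RMDN3* (0.865), ENSMNEG00000028180 (0.859), *ALKAL2* (0.857), *RGS9* (0.851), *CD247* (0.848), *EFCC1* (0.845), *PAFAH2* (0.844) and *AGFG2* (0.841). *CD247* encodes the zeta chain of the T-cell receptor complex.

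Summed over the 10 genes, the effector transcripts took 0.365% to 0.813% of the reads of a library (median 0.595%). The mean share was 0.564% ± 0.148 in pre-treatment libraries, 0.640% ± 0.171 in those of week 12 and 0.522% ± 0.0988 in those of week 18 (SD, n = 5), and the 3 ranges overlapped. Reads on *GZMA* amounted to 2.05% to 6.28% of those on *GZMB*, and reads on *GZMK* to 2.02% to 4.92%, with overlapping ranges at the 3 time points.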

How the data were processed

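PBMC libraries were made by the authors from total RNA with SMART-Seq v4 and Nextera XT, aligned with STAR 2.7.9a to Ensembl release 95 of *M. nemestrina*, and counted with STAR's GeneCounts option. The deposited values are raw read counts per gene, checked to be whole numbers. Which strand setting was kept is not given in the sources used here.

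Groups came from the labels. The 10 genes and the other lists were chosen with earlier results of these data known. The main test was edgeR 4.0.16 (R 4.3.3): TMM scaling, filterByExpr with a minimum count of 10, quasi-likelihood F test with time point and animal as terms, and Benjamini-Hochberg adjustment over 12880 features. The threshold was an adjusted p of 0.05. The animal was a block because the labels give each library's animal. Deviations from the time point means correlated at 0.551 on average for same-animal libraries (lowest 0.351 over 15 pairs). For the 60 pairs that differed in both animal and time point the average was -0.137. Subtracting the time point means makes values between animals negative where those within animals are positive. The biological coefficient of variation was 16.9% with the block and 29.3% without it. Standard errors are the size of the log2 fold change over the root of its F statistic. Log2 CPM used a prior count of 2. All 10 genes were named; from other lists, up to 3 genes a comparison with an unadjusted p under 0.05; and the 10 features most correlated with the effector genes. Alternatives were DESeq2 1.42.0, its size factors, no TMM, no filter, no block, each animal left out, and each date set alone. The gene table at hand is of another assembly, so no coordinates are given. A result for an item withheld for evaluation is not reported here.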

Additional observations from a re-analysis of the deposited data

Results flagged for a closer look

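Dixon's test was applied to the 5 animals' CPM values at each time point and to their changes, 60 groups in all, of which 3 had an animal far from the others; chance gives about 1 in 20. *GZMK* lay at 184 CPM in Z13076 before treatment, against 85.1 to 98.6 CPM in the other 4 animals. The change of *GZMM* from pre-treatment to week 12 was 1.03 in log2 CPM in Z15408, against -0.24 to -0.05 in the others. The change of *CTSW* from pre-treatment to week 18 was 0.54 in Z15408, against -0.38 to -0.12 in the others.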

How the results depend on the processing

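With 5 animals and no untreated group, the limits are the width of the intervals and the differences between animals, within and between the date sets. No effector gene passed an adjusted p of 0.05 between time points under any of the 12 alternatives, over 360 values, and the lowest adjusted p was 0.113 (*GZMA* at week 12 in the 3 animals with shared dates). Of these values 318 kept their sign and 42 did not. The replicate block changed no call of an effector gene. Without it the log2 fold change of *CTSW* from week 12 to week 18 was -0.02, and without TMM it was -0.01, against 0.00. Z13076 and Z15228 alone were fitted after the data had been seen. The cause of these shifts was not tested.

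In the 3 animals with shared dates the sign turned for *CTSW* at week 12 (0.02) and, at week 18 against pre-treatment, for *GZMA* (0.18), *GZMB* (0.21), *GZMK* (0.01), *GZMM* (0.28), *PRF1* (0.16), *CST7* (0.17), *CTSW* (0.10) and *KLRD1* (0.21). Against week 12 it turned for *GZMK* (0.10), *GZMM* (0.04) and *NKG7* (0.13). In the other 2 animals it turned at week 12 for *GZMA* (-0.12), *GZMB* (-0.08), *GZMM* (-0.20), *NKG7* (-0.05), *CST7* (-0.02), *KLRD1* (-0.09) and *KLRB1* (-0.28), at week 18 for *NKG7* (-0.43), and against week 12 for *CTSW* (-0.14).

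With each animal left out in turn, the values that turned ranged at week 12 from -0.15 to 0.12 for *GZMM*, -0.19 to 0.01 for *CTSW* and -0.02 to 0.29 for *KLRB1*. At week 18 they ranged from -0.33 to 0.01 for *GZMA*, -0.35 to 0.02 for *GZMB*, -0.27 to 0.11 for *GZMM*, -0.28 to 0.11 for *PRF1*, -0.14 to 0.37 for *NKG7*, -0.21 to 0.03 for *CST7*, -0.22 to 0.00 for *CTSW* and -0.15 to 0.09 for *KLRD1*. Against week 12 they ranged from -0.15 to 0.02 for *GZMK*, -0.12 to 0.00 for *GZMM*, -0.18 to 0.07 for *NKG7* and -0.07 to 0.04 for *CTSW*.

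The count of effector genes that differed between animals was 6 in the main fit (30.9% of all features). It was 10 without the filter (25.4%), 8 with DESeq2 (30.5%) and 7 without TMM (30.4%). With an animal left out it was 3 to 8 (17.7% to 33.2%). In the 3 animals with shared dates it was 6 (33.3%), and in the other 2 it was 4 (6.42%). Of all features, 1 passed at week 12, against 0 without the block, 23 with DESeq2, 83 without the filter, 7 in the 3 animals, 0 in the other 2, and 0 to 6 with an animal left out. At week 18, 1 passed, against 0 without the block, 50 with DESeq2, 10 without TMM, 136 without the filter, 7 in the 3 animals, 0 in the other 2, and 0 to 17 with an animal left out. From week 12 to week 18, 0 passed, with 279 at an unadjusted p under 0.05, against 8 with DESeq2 and 5 without the filter. Between animals, 3983 passed, against 830 in the 2 animals and 2284 to 4291 with an animal left out.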
